A study of Homo sapiens with 12 samples.

Results

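Gene expression was compared between cells labelled A549 with a Cas9 guide against TYMS and cells labelled A549 with a non-targeting one, both grown without a partner. The control-labelled libraries held transcripts of genes that are deleted in A549, and so go against that label. The members are 6 of the 12 RNA-sequencing libraries of the series, chosen by their labels: 3 with the guide gTYMS2 (genotype TYMS KO) and 3 with the guide gNTC1 (genotype NTC KO). All 6 come from cells described as A549, untreated, sampled 14 days after transduction, so both sides carry a guide. The other 6 libraries are co-cultures of the same guides and enter here only through the shared estimate of the spread and as a reference for how far libraries of 1 guide differ. The labels do not say whether the 3 libraries of a side come from separate cultures, clones or a pool, so p-values measure the spread between these libraries, which may be technical.

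TYMS encodes thymidylate synthase, which makes the thymidylate that cells need to copy their DNA. Cells without it depend on salvage of thymidine from outside. A549 is an established line from a human lung adenocarcinoma with alveolar type II features. It is known for a homozygous deletion at 9p21 that removes CDKN2A and MTAP and for inactivating mutations of SMARCA4, STK11 and KEAP1.

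TYMS (ENSG00000176890; chromosome 18, 657604 to 673578 of GRCh38) was read first, as the gene that the guide targets. It stood at 90.3, 101 and 95.2 CPM in the control-labelled libraries and 20.3, 20.96 and 21.4 CPM in the knockout-labelled libraries. The groups did not overlap, and all 3 libraries labelled knockout were the lower ones (log2 fold change -2.19 ± 0.11 SE, adjusted p = 7.29e-09 by edgeR). CPM here means counts per 1e6 counts after TMM scaling of the libraries, each fold change is the knockout label minus the control label, and SE, after ±, is its standard error, while ± between CPM values is the SD over 3 libraries. A frameshift need not remove a transcript, so these levels say only that the guide labels and the TYMS counts go the same way. Exons of TYMS overlap those of neighbouring genes, and the strand setting of the counts is not given in the sources used here.

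The label A549 was then checked against the genes whose state in that line is known. CDKN2A (ENSG00000147889; chromosome 9, 21967753 to 21995301), the gene of the cell cycle inhibitors p16 and p14ARF, stood at 73.2, 108 and 116 CPM in the control-labelled libraries and 0 CPM in each of the knockout-labelled libraries. It was thus at least 649-fold lower in the knockout label (edgeR adjusted p = 2.72e-08). MTAP (ENSG00000099810; chromosome 9, 21802543 to 21937651), the neighbouring gene of a methionine salvage enzyme, stood at 79.5, 55.3 and 43.8 CPM in the control-labelled libraries and 0.550, 0.647 and 0.548 CPM in the knockout-labelled libraries, the latter from 9 to 13 counts (log2 fold change -6.66 ± 0.30 SE, adjusted p = 2.75e-09 by edgeR). CDKN2B, the p15 gene on its other side, stood at 1.61, 1.79 and 1.97 CPM in the control-labelled libraries and 0 CPM in each of the knockout-labelled libraries. A line that lacks both copies of CDKN2A and MTAP cannot make these transcripts, so the 3 libraries labelled control go against their A549 label, while the 3 labelled knockout carry the 9p21 state known for A549. The groups are therefore called "labelled control" and "labelled knockout" throughout.

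Further genes of known state in A549 were read in the same way. SMARCA4 (ENSG00000127616; chromosome 19, 10960825 to 11079426), the ATPase of the SWI/SNF chromatin remodelling complex, stood at 162, 199 and 202 CPM in the control-labelled libraries and 13.5, 13.5 and 13.4 CPM in the knockout-labelled libraries, with all 3 labelled control above all 3 labelled knockout (log2 fold change -3.797 ± 0.14 SE, adjusted p = 7.33e-10 by edgeR). Its paralogue SMARCA2 went the other way, at 17.97, 21.3 and 12.8 CPM in the control-labelled libraries and 60.2, 53.2 and 48.4 CPM in the knockout-labelled libraries (log2 fold change 1.64 ± 0.25 SE, adjusted p = 0.000132 by edgeR). STK11, the kinase LKB1, was lower in the knockout label (302 ± 70.0 against 115 ± 28.4 CPM, log2 fold change -1.40 ± 0.25 SE, adjusted p = 0.000373 by edgeR), and so was KEAP1, the adaptor that targets NRF2 for degradation (245 ± 51.8 against 131 ± 18.96 CPM, log2 fold change -0.90 ± 0.20 SE, adjusted p = 0.0022 by edgeR). MDM2, a ubiquitin ligase, was higher (13.9 ± 7.37 against 104 ± 21.4 CPM, log2 fold change 2.91 ± 0.49 SE, adjusted p = 0.000267 by edgeR). Counts carry no sequence, so mutations could not be read. This list had 18 tested genes, with calls for 5 as higher and for 6 as lower. Over all genes tested, 28% were called higher and 28.6% lower, so the list as a whole lies near those shares. Of its 15 tested tumour suppressors and oncogenes, 5 were higher, 3 lower and 7 not called.

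**Figure D1:**
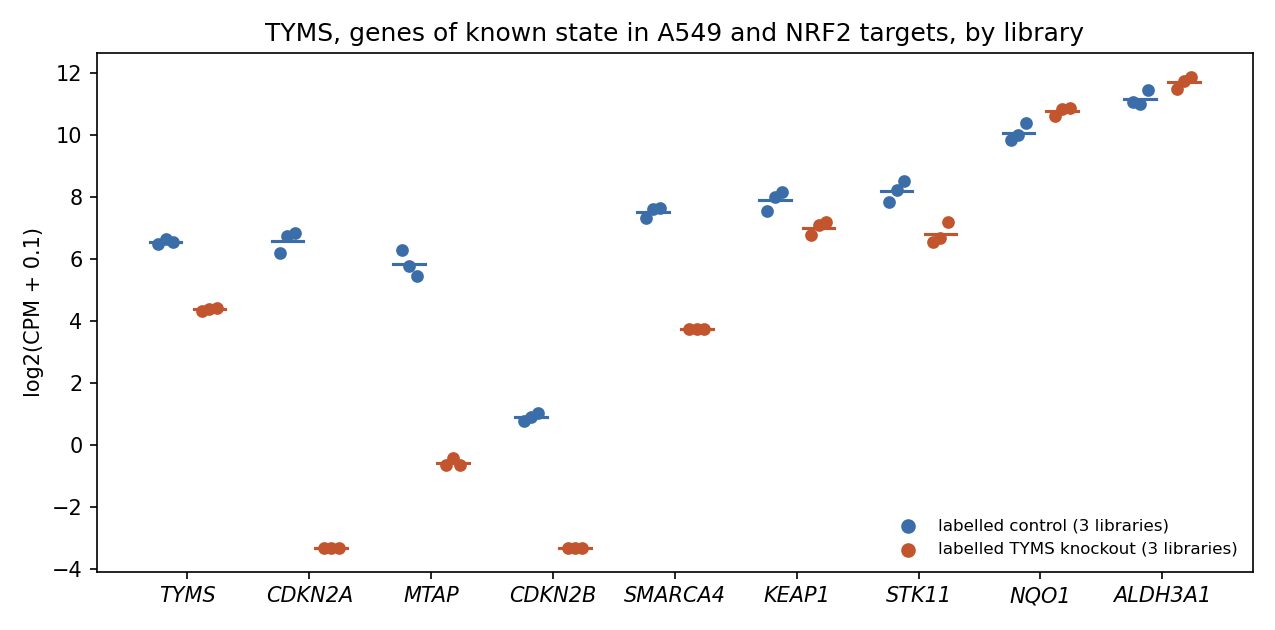
Level of TYMS, 6 genes whose state in A549 is known and the NRF2 targets NQO1 and ALDH3A1, on the log2(CPM + 0.1) scale; each point is 1 library and each short line the mean of 3. CDKN2A and CDKN2B are at 0 in all 3 libraries labelled knockout, and CDKN2A is at 73.2 to 116 CPM in those labelled control.

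The window of 1500000 bases on each side of CDKN2A held 9 tested genes. The 3 above were lower in the knockout label. FOCAD (41.4 against 82.7 CPM), HACD4 (0.783 against 2.17 CPM), KLHL9 (10.1 against 26.3 CPM), MIR31HG (10.6 against 15.2 CPM) and DMRTA1 (0.217 against 2.04 CPM), which lie outside the 3, were all called higher there. HACD4 lost its call with GC offsets (log2 fold change 0.77, and 0.79 with the replicate block too), KLHL9 lost it without knockout replicate 1 (1.10), and MIR31HG lost it with no filter (0.51), without control replicate 1 (0.41) and without knockout replicate 1 (0.52) or 2 (0.49). CDKN2B-AS1, an antisense RNA that starts beside CDKN2A and overlaps its exons, stood at 1.43 against 3.25 CPM (log2 fold change 1.19 ± 0.25 SE, adjusted p = 0.00142 by edgeR). CDKN2B-AS1 runs from 21994778 to 22121097 and so spans CDKN2B (22002903 to 22009363). The loss of signal thus covered MTAP, CDKN2A and CDKN2B, but not this antisense RNA across CDKN2B. It did not reach the tested genes beyond the 3. These neighbours were chosen by position.

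Genes seen on only 1 side were counted as a second check. With at least 5 CPM in each library of a side and at most 3 counts in each library of the other, 58 genes were detected in the control label only and 8 in the knockout label only. The same rule found 0 genes in either direction between lone and co-cultured libraries of the non-targeting guide, and 0 between those of the TYMS guide. At 20 CPM, a level chosen after seeing the data, the counts were 24 and 3. Pearson correlations of log2 CPM were 0.977 to 0.987 among the 3 libraries labelled control, 0.984 to 0.990 among the 3 labelled knockout, and 0.822 to 0.884 between the sides. Every difference below is thus between libraries that differ in guide and also in the genes that mark the line, and the guide and the line cannot be told apart in these 6 libraries.

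Library totals of the 6 ran from 14921371 to 21973757 counts, and the biological coefficient of variation was 22.1%. The 2 sides held similar shares of mitochondrial transcripts, 2.74 to 4.06% in the control label and 3.66 to 4.43% in the knockout label. Marker sums were read for 7 cell classes. The 6 lung epithelial markers summed to 10888 to 17778 CPM in the control label and 9895 to 13705 CPM in the knockout label, and 6 and 5 of them reached 1 CPM. EPCAM, one of them, was at 0.398 to 0.913 CPM in the knockout label. The 4 alveolar markers summed to at most 2.19 CPM in any of the 6 libraries and the 5 immune markers to at most 0.974 CPM. The 5 fibroblast markers summed to 17.0 to 20.2 CPM in the control label and 21.7 to 24.5 CPM in the knockout label. Most of this was COL1A1 at 16.5 to 24.1 CPM, with DCN and LUM at or near 0. In the same order, the 5 neuroendocrine markers summed to 4.03 to 5.67 against 5.71 to 8.21 CPM. The 4 basal or squamous markers summed to 2.73 to 3.35 against 3.98 to 4.53 CPM. The 4 endothelial markers summed to 2.13 to 2.60 against 0.0847 to 0.398 CPM. In bulk RNA, fewer cells of a kind and less RNA per cell cannot be told apart.

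Of 16768 genes tested, 9485 (56.6%) were called at an edgeR adjusted p under 0.05. Of these, 4690 (28%) were higher and 4795 (28.6%) lower in the knockout label, with a median log2 fold change over all genes of 0.09. That median was 0.24 when only library size was used for scaling, 0.16 with upper-quartile scaling, 0.03 with DESeq2 size factors and 0.01 with GC offsets. The counts of list members below stand against these percentages: a list with about 28% higher and 28.6% lower has shares like those of all genes. No list was tested as a set.

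Across 16505 genes the log2 fold change had a Spearman correlation of -0.390 with the GC content of transcripts. Genes under 40% GC had a median of 0.64, with 33.6% called higher and 5.92% lower. Genes of 60% GC and over had a median of -0.72, with 12.9% called higher and 54.2% lower. Libraries of 1 side also differed along GC: deviations from the group mean correlated with GC at -0.743, 0.138 and 0.716 in the control label and at -0.67, 0.138 and 0.671 in the knockout label, over 12055 genes. These are correlations across genes, which share libraries and are not independent.

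The fit was repeated with an offset per library that removes its trend with GC, whatever the source of the trend. The correlation was then -0.0116. Of the 9485 called genes, 8106 (85.5%) were also called in the same direction, 22 in the opposite direction and 1357 were lost. Of the 6341 called genes with a log2 fold change of at least 1 in size, 5981 stayed called in the same direction. Offsets that only even out libraries within a group left the correlation at -0.389. The genes with large differences thus mostly kept their calls, while a list median near 0 can turn with GC, and each list below is given with both values.

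**Figure D2:**
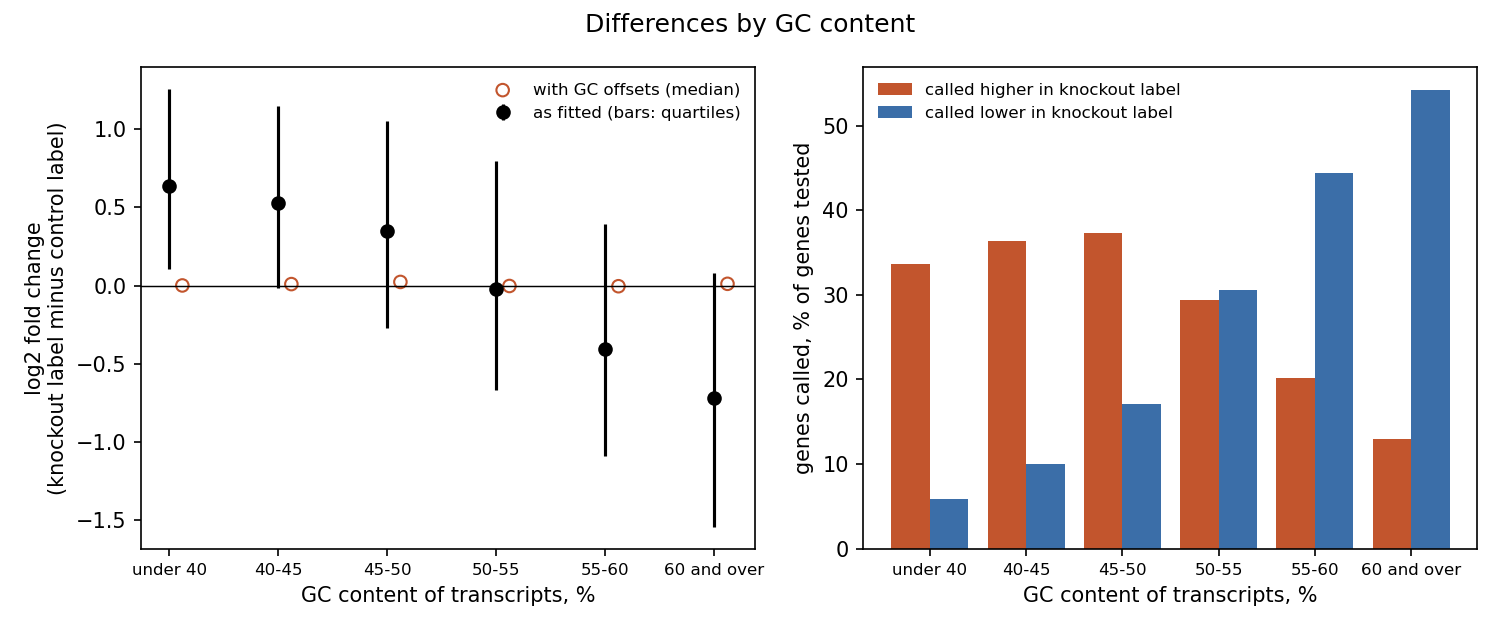
Left, median log2 fold change (knockout label minus control label) of genes in 6 bins of transcript GC content, with quartiles, and the median after GC offsets; right, the percentage of genes in each bin called higher or lower. The median falls from 0.64 under 40% GC to -0.72 at 60% and over, and lies near 0 in each bin after offsets.

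Differences were not even over the chromosomes. The median was 0.65 on chromosome 2, where 47.3% of 1098 tested genes were called higher and 14.8% lower, and stayed at 0.40 with GC offsets. Chromosome X had 0.50, and 0.25 with offsets. Chromosome 19, with a median gene GC of 59.7%, had -0.61 and moved to -0.15. Chromosome 22 moved from -0.59 to -0.29. Chromosome 6 went from -0.12 to -0.33 and chromosome 13 from 0.02 to -0.33, while with library size only they were at 0.0477 and 0.168. Copy number was not measured in these files.

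**Figure D3:**
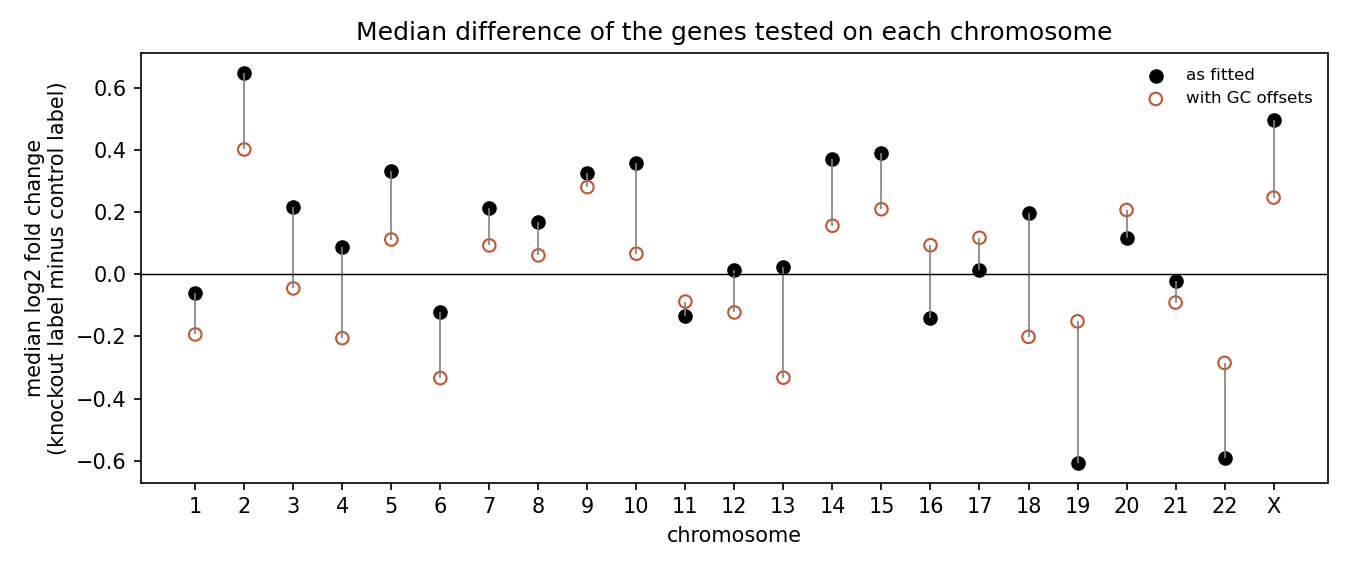
Median log2 fold change (knockout label minus control label) of the tested genes on each chromosome, as fitted and with GC offsets. Chromosome 2 is highest in both, and chromosome 19 moves from -0.61 to -0.15.

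Of the 30 programme lists read, the one with the median farthest from 0 held genes of epithelial cells, whose junctions and surface proteins hold a sheet of cells together. All 48 listed genes passed the filter on low counts. Of them, 5 were higher and 36 lower by the test, with a median log2 fold change of -2.20 (-2.14 with GC offsets). With genes at the floor of detection set to their bound the median was -2.09. Among the 9 transcription and splicing factors, 8 were lower, and EHF stood at 3.70 against 3.51 CPM. GRHL2, a master regulator of epithelial genes, was at 21.7, 21.3 and 18.1 CPM in the control-labelled libraries and 0 CPM in each of the knockout-labelled libraries (at least 133-fold lower in the knockout label, edgeR adjusted p = 3.49e-08). ESRP1, which directs epithelial splicing, was at 41.03, 43.7 and 30.99 CPM in the control-labelled libraries and 0.127, 0.0498 and 0.0608 CPM in the knockout-labelled libraries (at least 252-fold lower in the knockout label, edgeR adjusted p = 1.36e-09). OVOL1, a repressor of mesenchymal genes, was at least 116-fold lower in the knockout label (edgeR adjusted p = 2.65e-08). Reads of these factors were thus near absent from all 3 libraries labelled knockout.

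Among the 20 junction genes, 15 were lower and 3 higher. CLDN7, a tight junction claudin, was at 224, 321 and 362 CPM in the control-labelled libraries and 0.0847, 0.0498 and 0.183 CPM in the knockout-labelled libraries (at least 1976-fold lower in the knockout label, edgeR adjusted p = 2.85e-10). E-cadherin itself was lower but not absent: CDH1 was at 62.0, 60.1 and 45.4 CPM in the control-labelled libraries and 19.01, 18.4 and 15.1 CPM in the knockout-labelled libraries (log2 fold change -1.67 ± 0.19 SE, adjusted p = 9.40e-06 by edgeR). EPCAM, the epithelial adhesion molecule used to sort carcinoma cells, was at 119, 94.4 and 97.8 CPM in the control-labelled libraries and 0.550, 0.398 and 0.913 CPM in the knockout-labelled libraries (log2 fold change -7.41 ± 0.30 SE, adjusted p = 1.36e-09 by edgeR), and was chosen for the text as a marker. CLDN1, another claudin, was higher (11.002 ± 1.3602 against 83.8 ± 14.7 CPM, log2 fold change 2.93 ± 0.26 SE, adjusted p = 1.01e-06 by edgeR). Of the 10 protease and surface genes, 9 were lower. The membrane protease matriptase, ST14, was at 299, 422 and 466 CPM in the control-labelled libraries and 0.0847, 0.199 and 0.183 CPM in the knockout-labelled libraries (log2 fold change -11.31 ± 0.33 SE, adjusted p = 2.58e-10 by edgeR). RAB25 (ENSG00000132698; chromosome 1, 156061160 to 156070514), a GTPase of epithelial recycling endosomes, was at 84.3, 128 and 127 CPM in the control-labelled libraries and 0.0423, 0.0996 and 0 CPM in the knockout-labelled libraries (at least 739-fold lower in the knockout label, edgeR adjusted p = 1.29e-09). The keratins divided: KRT7 (1910.2 against 5952 CPM) and KRT80 (113 against 289 CPM) were higher, while KRT19, chosen as a marker, was at 1740.2 against 255 CPM and was lower.

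The promoters of RAB25 and of CRB3, a polarity gene that was lower at 44.04 ± 10.2 against 5.58 ± 1.10 CPM, are shown because both hold the letters CAGGTG, the E-box that ZEB and SNAI repressors bind. CRB3 was chosen after its values were seen. The sequences are from RefSeq on GRCh38.p14 and run from 250 bases before to 50 after the start, with CAGGTG or its reverse complement CACCTG in capitals. RAB25 is chr1:156060910-156061209 and CRB3 is chr19:6464021-6464320, both on the plus strand.
RAB25: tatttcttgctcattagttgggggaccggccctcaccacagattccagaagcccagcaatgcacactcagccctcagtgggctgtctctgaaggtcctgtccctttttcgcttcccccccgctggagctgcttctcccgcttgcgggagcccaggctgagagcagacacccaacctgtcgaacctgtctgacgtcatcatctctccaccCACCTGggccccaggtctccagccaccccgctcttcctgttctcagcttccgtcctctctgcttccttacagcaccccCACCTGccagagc
CRB3: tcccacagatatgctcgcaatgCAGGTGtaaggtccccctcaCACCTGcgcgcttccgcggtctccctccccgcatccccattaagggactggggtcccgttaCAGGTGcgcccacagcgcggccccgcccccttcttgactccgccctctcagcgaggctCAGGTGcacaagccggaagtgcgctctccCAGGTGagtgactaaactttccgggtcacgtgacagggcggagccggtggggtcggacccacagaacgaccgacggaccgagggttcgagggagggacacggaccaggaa
The motif, searched on both strands, is in 20.6% of all 35116 promoters of this length, and these matches are a description and not measured sites. Of the 48 listed epithelial genes 23 have a promoter entry, and their share with the motif was not counted. Repression through these E-boxes was not tested.

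Mesenchymal genes, which build contractile fibres and are used as signs of a spindle-shaped state, went the other way. Of 31 listed, 25 were tested, 17 were higher and 2 lower by the test, with a median log2 fold change of 1.44 (1.82 with GC offsets). Of the transcription factors, ZEB1 was at 1.18, 0.678 and 0.328 CPM in the control-labelled libraries and 3.60, 3.98 and 2.19 CPM in the knockout-labelled libraries (log2 fold change 2.18 ± 0.64 SE, adjusted p = 0.0114 by edgeR) and ZEB2 at 0.620, 0.493 and 0.164 CPM in the control-labelled libraries and 7.07, 4.98 and 5.29 CPM in the knockout-labelled libraries (log2 fold change 3.77 ± 0.56 SE, adjusted p = 9.45e-05 by edgeR). Both bind E-boxes and repress epithelial genes, and both were low in absolute level. Without control replicate 3, ZEB1 was no longer called (log2 fold change 1.79). FOXC2 was at least 23.8-fold higher in the knockout label (edgeR adjusted p = 5.52e-07), and TWIST2 was higher at 4.95 against 13.5 CPM. SNAI1, a repressor of E-cadherin, was lower (12.2 ± 2.73 against 2.89 ± 0.413 CPM, log2 fold change -2.08 ± 0.27 SE, adjusted p = 3.34e-05 by edgeR), and TWIST1 stood at 2.38 against 2.41 CPM and was not called. The factors of this list therefore did not all go one way. TAGLN, an actin-binding protein, was at 8.43, 9.36 and 12.02 CPM in the control-labelled libraries and 211, 296 and 331 CPM in the knockout-labelled libraries (log2 fold change 4.81 ± 0.25 SE, adjusted p = 8.94e-09 by edgeR). N-cadherin, CDH2, was higher (10.4 ± 3.13 against 80.6 ± 7.63 CPM, log2 fold change 2.96 ± 0.27 SE, adjusted p = 1.27e-06 by edgeR), as was the tropomyosin TPM1 (131 against 1149 CPM). LOXL1, a collagen cross-linking enzyme, was lower (16.8 against 0.690 CPM).

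**Figure D4:**
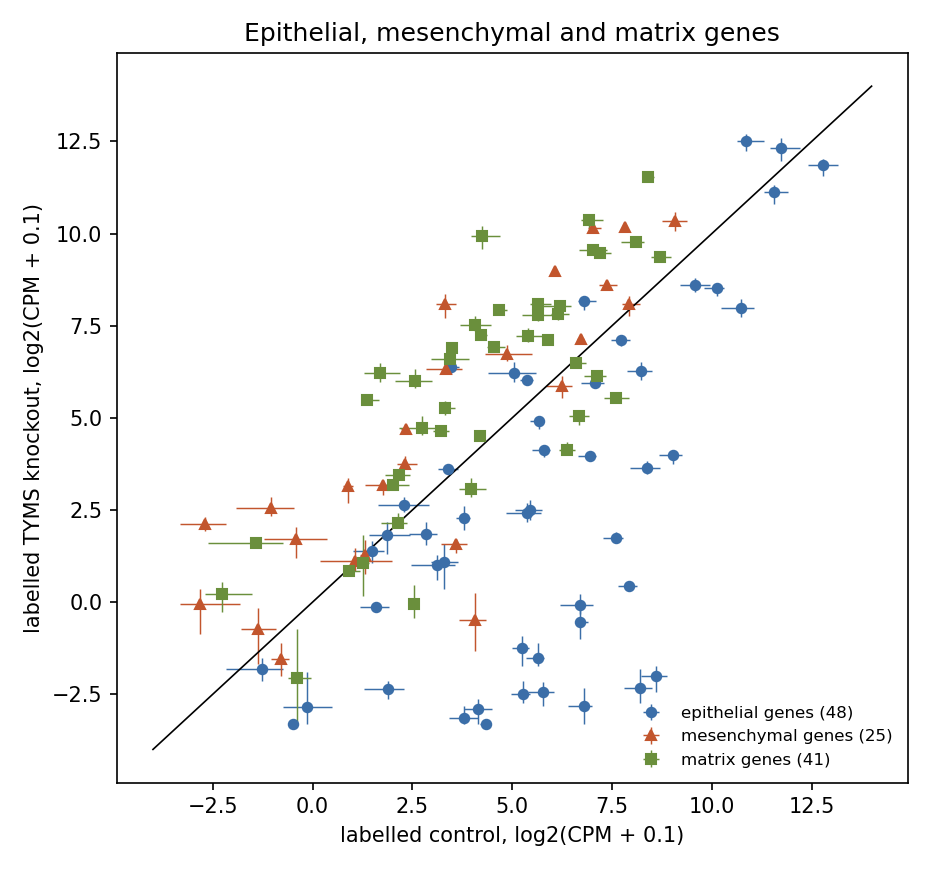
Mean log2(CPM + 0.1) of each tested epithelial, mesenchymal and matrix gene in the 3 libraries labelled control (horizontal) and the 3 labelled knockout (vertical), with bars from the lowest to the highest library and a line of equal level. Epithelial genes lie mostly below the line (36 of 48 called lower) and matrix genes mostly above it (29 of 41 called higher).

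Matrix genes encode collagens, laminins and glycoproteins that cells secrete around themselves. Of the list, 41 of 47 were tested, and 29 were higher and 6 lower by the test, with a median log2 fold change of 1.80 (1.92 with GC offsets). Glycoproteins made up 15 of the higher genes. SPP1, the secreted phosphoprotein osteopontin, was at 25.9, 16.1 and 15.6 CPM in the control-labelled libraries and 1176, 1038 and 772 CPM in the knockout-labelled libraries (log2 fold change 5.70 ± 0.37 SE, adjusted p = 6.48e-08 by edgeR). FBN1, the microfibril protein fibrillin, was higher (3.22 ± 1.11 against 75.1 ± 13.4 CPM, log2 fold change 4.55 ± 0.29 SE, adjusted p = 6.27e-08 by edgeR), as was the laminin chain LAMA3 (5.98 against 64.8 CPM). Lower members were LAMB3 (83.3 against 17.6 CPM), which pairs with LAMA3 in laminin-332, COL6A2 (196 against 46.6 CPM) and COL13A1 (5.74 against 0.896 CPM). Of 16 tested integrins, 9 were higher and 5 lower (median log2 fold change 0.74, and 0.52 with GC offsets). The alpha chains ITGA11 (1.56 against 48.6 CPM) and ITGAV (13.3 against 101 CPM) and the beta chain ITGB3 (0.852 against 8.998 CPM) were higher. ITGA5 (149.8 against 86.1 CPM), a fibronectin receptor chain, was lower.

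Among matrix proteases and plasminogen genes, 28 of 31 were tested, of which 15 were higher and 8 lower by the test (median log2 fold change 0.83, and 0.61 with GC offsets). ADAMTS12 (0.304 against 12.2 CPM), a secreted metalloprotease, and the protease inhibitors SERPINE2 (68.8 against 774 CPM) and TIMP2 (166 against 603 CPM) were higher. SERPINB5, the epithelial serpin maspin, was at least 47.6-fold lower in the knockout label (edgeR adjusted p = 3.81e-08), and MMP14, a membrane-bound collagenase, was lower (35.7 against 0.865 CPM).

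Genes of TGF-beta and BMP signalling, pathways in which ligands act through SMAD factors, were read from a list of 39, of which 35 were tested. Of these, 17 were higher and 7 lower by the test, with a median log2 fold change of 0.60 (0.91 with GC offsets). The ligand TGFB2 (3.62 ± 1.39 against 71.0 ± 9.54 CPM, log2 fold change 4.30 ± 0.34 SE, adjusted p = 3.77e-07 by edgeR), the signal carrier SMAD3 (113 against 489 CPM) and the feedback regulator SKIL (4.27 against 20.2 CPM) were higher. The BMP ligands BMP4 (166 against 8.29 CPM), BMP7 (14.9 against 1.09 CPM) and BMP6 (8.31 against 3.09 CPM), and ID1 (563 against 153 CPM), which BMPs induce, were lower.

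In the Hippo pathway, the coactivators YAP and TAZ bind TEAD factors. Of 26 tested genes, 14 were higher and 4 lower by the test (median log2 fold change 0.80, and 1.06 with GC offsets). The 12 targets held 10 of the higher genes. ANKRD1, a frequently used YAP target, was at 0.496, 0.616 and 0.383 CPM in the control-labelled libraries and 8.04, 6.42 and 5.23 CPM in the knockout-labelled libraries (log2 fold change 3.72 ± 0.32 SE, adjusted p = 7.19e-07 by edgeR). YAP1 itself stood at 38.7 against 38.6 CPM and was not called, though with GC offsets it was called lower (log2 fold change -0.50). TAZ, encoded by WWTR1, was higher (46.5 against 103 CPM). TEAD1 was higher (20.1 ± 9.53 against 97.9 ± 19.9 CPM, log2 fold change 2.29 ± 0.45 SE, adjusted p = 0.000879 by edgeR), and TEAD2 (127 ± 26.9 against 24.1 ± 5.33 CPM, log2 fold change -2.39 ± 0.22 SE, adjusted p = 1.64e-06 by edgeR), TEAD3 (46.1 against 16.01 CPM) and TEAD4 (59.8 against 39.2 CPM) were lower, although TEAD4 turned to 0.12 with GC offsets. F3, tissue factor, was lower (5.27 against 1.91 CPM).

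The lineage programmes of lung, gut and liver were read next. Of 32 lung genes only 15 passed the filter, and 3 were called higher and 4 lower (median log2 fold change 0.15, and 0.36 with GC offsets). NKX2-1, the lung and thyroid factor, had at most 0.862 CPM in any of the 6 libraries. The pioneer factors FOXA1 (9.41 ± 1.48 against 33.2 ± 3.51 CPM, log2 fold change 1.82 ± 0.18 SE, adjusted p = 3.37e-06 by edgeR) and FOXA2 (27.5 ± 4.498 against 45.3 ± 7.47 CPM, log2 fold change 0.72 ± 0.22 SE, adjusted p = 0.0148 by edgeR) were higher, FOXA2 without a call when control replicate 2 (0.63) or knockout replicate 3 (0.57) was left out, and GATA6 stood at 8.19 against 8.15 CPM and was not called, though it was called higher with GC offsets, with or without the replicate block (log2 fold change 0.64 in both). Of the surfactant and alveolar products, the lipid transporter ABCA3 stood at 86.2 against 119.9 CPM and was not called, though it was called higher with GC offsets (log2 fold change 1.07), with library size only (0.64), without control replicate 3 (0.63) and under 4 other alternatives, and 3 of 4 airway secretory products were lower. They included the mucin MUC5B (52.1 against 1.26 CPM).

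Of 44 gut and liver genes, 29 were tested, 9 were higher and 12 lower (median log2 fold change -0.66, and -0.60 with GC offsets). Of 8 tested transcription factors 4 were higher and 3 lower. CDX2, the intestinal homeobox factor, was at 23.4, 28.5 and 30.4 CPM in the control-labelled libraries and 0.847, 0.946 and 0.487 CPM in the knockout-labelled libraries (log2 fold change -5.14 ± 0.30 SE, adjusted p = 2.79e-08 by edgeR). FOXA3, a liver and gut forkhead factor, was lower (20.95 ± 5.81 against 1.04 ± 0.540 CPM, log2 fold change -4.36 ± 0.37 SE, adjusted p = 7.91e-07 by edgeR). HNF4A (10.9 ± 1.24 against 29.9 ± 0.971 CPM, log2 fold change 1.46 ± 0.16 SE, adjusted p = 7.50e-06 by edgeR), GATA4 (2.29 against 6.69 CPM) and NR5A2 (2.31 against 10.96 CPM), regulators of liver, pancreas and gut genes, were higher. Among products, the adhesive plasma protein VTN was higher (6.91 against 65.4 CPM), and the fibrinogen chain FGA (11.4 against 0.423 CPM) and the retinol carrier RBP4 (8.10 against 2.51 CPM) were lower.

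NRF2, the factor that KEAP1 holds in check, drives genes of glutathione, thioredoxin and detoxification. All 44 listed genes were tested, and 37 were higher and 1 lower by the test (median log2 fold change 1.19, and 1.17 with GC offsets). By role, 11 of 14 glutathione and thioredoxin genes, 16 of 17 detoxification and export genes and 9 of 9 other targets were higher. CYP4F11, a fatty acid hydroxylase, was at 1.302, 0.616 and 1.15 CPM in the control-labelled libraries and 36.9, 31.6 and 32.1 CPM in the knockout-labelled libraries (log2 fold change 5.02 ± 0.29 SE, adjusted p = 2.72e-08 by edgeR). HMOX1, heme oxygenase, was at 67.9, 85.1 and 96.2 CPM in the control-labelled libraries and 566, 715 and 735 CPM in the knockout-labelled libraries (log2 fold change 3.02 ± 0.19 SE, adjusted p = 5.65e-08 by edgeR), and SLC7A11, the cystine importer, at 19.3, 10.7 and 9.51 CPM in the control-labelled libraries and 118, 89.3 and 75.6 CPM in the knockout-labelled libraries (log2 fold change 2.84 ± 0.36 SE, adjusted p = 2.31e-05 by edgeR). The difference was therefore shared by enzymes and transporters. Not every target was low in the control label: NQO1 was at 1106 ± 218 against 1762 ± 167 CPM and ALDH3A1 at 2343 ± 402 against 3389.9 ± 468 CPM (log2 fold change 0.53 ± 0.22 SE, adjusted p = 0.0544 by edgeR), both named after their values were seen. NQO1 was called higher, but not with GC offsets (log2 fold change 0.39), and ALDH3A1 was called with them (1.11), without control replicate 3 (0.66), without knockout replicate 1 (0.63) and under 7 other alternatives. NFE2L2, which encodes NRF2, stood at 9.73 against 21.1 CPM and was not called, though DESeq2 (1.07) and 3 other alternatives called it higher, and its partner MAFG was higher (139.5 against 222 CPM).

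Promoters of CYP4F11 and of TXNRD1, a thioredoxin reductase named after its values were seen (223 ± 52.2 against 1061 ± 253 CPM, log2 fold change 2.25 ± 0.30 SE, adjusted p = 4.50e-05 by edgeR), are shown because they hold the core TGACNNNGC of the antioxidant response element. They are from RefSeq on GRCh38.p14, with the core in capitals on either strand. Each gene has 2 entries, of which the first is shown. TXNRD1 is chr12:104215529-104215828 on the plus strand, and CYP4F11 is chr19:15934818-15935117 on the minus strand.
TXNRD1: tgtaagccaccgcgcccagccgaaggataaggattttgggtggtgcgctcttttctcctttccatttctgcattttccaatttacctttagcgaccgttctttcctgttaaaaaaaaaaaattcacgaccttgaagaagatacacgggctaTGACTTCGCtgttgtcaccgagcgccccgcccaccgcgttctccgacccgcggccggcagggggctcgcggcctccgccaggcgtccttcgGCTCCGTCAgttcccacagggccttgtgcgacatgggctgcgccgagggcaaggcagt
CYP4F11: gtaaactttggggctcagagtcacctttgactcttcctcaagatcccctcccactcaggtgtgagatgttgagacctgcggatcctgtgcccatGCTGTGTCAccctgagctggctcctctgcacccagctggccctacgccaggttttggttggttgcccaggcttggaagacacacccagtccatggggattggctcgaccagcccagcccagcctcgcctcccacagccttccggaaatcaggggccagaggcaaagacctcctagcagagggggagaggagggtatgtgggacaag
That core is in 13.3% of all promoters of this length, and a match is not a measured site. Of the 44 listed NRF2 genes 32 have a promoter entry, and their share with the core was not counted.

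Of 32 genes of retinoid, aldehyde and drug metabolism, 27 were tested, with 15 higher and 8 lower (median log2 fold change 0.76, and 0.57 with GC offsets). The retinoic acid receptor RARB was higher (0.447 ± 0.372 against 19.7 ± 3.87 CPM, log2 fold change 5.47 ± 0.59 SE, adjusted p = 6.34e-06 by edgeR), and so were the hydroxylase CYP1B1 (5.25 against 26.2 CPM) and the glutathione transferase GSTM3 (3.31 against 9.09 CPM). The retinoid-binding protein CRABP2 (265 ± 57.8 against 1.89 ± 0.487 CPM, log2 fold change -7.15 ± 0.25 SE, adjusted p = 5.86e-10 by edgeR) and the retinal dehydrogenase ALDH1A3 (53.1 against 14.9 CPM) were lower. Genes of the UGT1A family share exons, so the level of UGT1A1 (0.101 against 5.05 CPM) may hold reads of its relatives.

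Growth factor signals through RAS and MAPK induce immediate-early factors and phosphatases that feed back. All 38 listed genes were tested, and 6 were higher and 23 lower by the test (median log2 fold change -0.97, and -0.995 with GC offsets). EGR1, an immediate-early zinc-finger factor, was at 56.1, 69.0 and 65.1 CPM in the control-labelled libraries and 0.677, 0.797 and 1.10 CPM in the knockout-labelled libraries (log2 fold change -6.23 ± 0.23 SE, adjusted p = 7.54e-10 by edgeR). The AP-1 subunits divided: FOS (7.41 against 0.719 CPM) and JUND (397 against 98.1 CPM) were lower, while JUN (59.0 against 152 CPM) and FOSL2 (119.6 against 349 CPM) were higher. The same held for the phosphatases, with DUSP6, which acts on ERK, lower (70.2 ± 4.44 against 5.32 ± 0.699 CPM, log2 fold change -3.72 ± 0.18 SE, adjusted p = 5.56e-09 by edgeR) and DUSP1 higher (60.5 ± 8.74 against 299.9 ± 28.6 CPM, log2 fold change 2.31 ± 0.18 SE, adjusted p = 3.20e-07 by edgeR). MYC was lower by a small step (257 against 185 CPM, log2 fold change -0.47) and lost its call with GC offsets (0.00671), and FOSL1 stood at 103 against 133 CPM and was called higher with GC offsets (0.96), without control replicate 3 (0.49) and under 4 other alternatives.

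For ERBB, FGF, MET and IGF signalling, 42 of 50 were tested, and 17 were higher and 18 lower. The median was -0.14 and -0.12 with GC offsets, and turned to 0.0158 with library size only. The ligands FGF2 (4.41 ± 1.499 against 46.6 ± 4.05 CPM, log2 fold change 3.40 ± 0.33 SE, adjusted p = 2.39e-06 by edgeR) and NRG1 (25.6 ± 5.02 against 217 ± 10.96 CPM, log2 fold change 3.08 ± 0.19 SE, adjusted p = 4.93e-08 by edgeR) were higher, and FGF19, a gut hormone of bile acid control, was at least 227-fold lower in the knockout label (edgeR adjusted p = 1.95e-09). The receptors ERBB3 (28.1 ± 3.68 against 1.38 ± 0.0747 CPM, log2 fold change -4.34 ± 0.21 SE, adjusted p = 5.51e-09 by edgeR), FGFR2 (11.4 against 0.356 CPM) and FGFR3 (52.9 against 3.47 CPM) were lower. IGFBP3 (80.8 against 568 CPM) and IGFBP7 (63.2 against 487 CPM), which bind insulin-like growth factors, were higher.

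Of 48 WNT and Notch genes, 44 were tested, and 12 were higher and 24 lower by the test (median log2 fold change -0.64, and -0.32 with GC offsets). Of 15 tested Notch genes 3 were higher and 10 lower, with a median of -1.54 (-0.83 with GC offsets). Of 29 tested WNT genes 9 were higher and 14 lower, and their median of -0.38 turned to 0.11 with GC offsets. AXIN2 (59.9 ± 4.08 against 1.95 ± 0.270 CPM, log2 fold change -4.93 ± 0.17 SE, adjusted p = 4.31e-10 by edgeR), NKD1 (26.4 against 1.81 CPM) and NOTUM (16.6 against 0.223 CPM), which WNT signals induce and which restrain them, were all lower. The secreted inhibitors DKK3 (13.1 ± 1.85 against 88.3 ± 3.11 CPM, log2 fold change 2.75 ± 0.18 SE, adjusted p = 8.02e-08 by edgeR) and SFRP1 (10.5 against 59.3 CPM) were higher. The receptors ROR1 (2.80 against 13.7 CPM) and ROR2 (36.9 against 1.17 CPM) went opposite ways, the first higher and the second lower.

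Of 37 neuronal and neuroendocrine genes, 21 were tested, with 11 higher and 6 lower (median log2 fold change 0.70, and 1.08 with GC offsets). NEFL, a light chain of neurofilaments, was at 0.806, 1.05 and 0.765 CPM in the control-labelled libraries and 93.8, 86.8 and 90.7 CPM in the knockout-labelled libraries (log2 fold change 6.69 ± 0.18 SE, adjusted p = 1.28e-10 by edgeR). SNAP25, a synaptic fusion protein, was higher (0.855 ± 0.125 against 11.3 ± 3.03 CPM, log2 fold change 3.72 ± 0.31 SE, adjusted p = 7.19e-07 by edgeR), and so was the intermediate filament gene INA (6.995 against 47.96 CPM). The calcium sensor SYT1 was lower (13.03 against 3.54 CPM), as was the factor MYT1 (5.57 against 0.308 CPM). REST, the repressor of neuronal genes, stood at 9.87 against 12.7 CPM and was not called. The neuroendocrine factors NEUROD1 and INSM1 were at or near 0 in all 6 libraries.

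Cancer-testis genes are active in germ cells and in some tumours. Only 11 of 56 passed the filter, 3 were higher and 4 lower, and the median of 0.32 (0.09 with GC offsets) turned to -5.25 when 5 CPM was required and ranged from 0.00178 to 0.32 with 1 library left out. The 3 tested X-linked genes were all lower. MAGEB2 was at 119, 160.1 and 145 CPM in the control-labelled libraries and 0 CPM in each of the knockout-labelled libraries (at least 925-fold lower in the knockout label, edgeR adjusted p = 9.14e-09), MAGEA3 was at least 679-fold lower in the knockout label (edgeR adjusted p = 2.58e-10) and MAGEA6 was at 12.6 against 0.309 CPM. MAGEA3 and MAGEA6 are near-identical copies, so reads may have been divided between them. GTSF1, a piRNA pathway protein, was at 56.4, 72.2 and 62.5 CPM in the control-labelled libraries and 0 CPM in each of the knockout-labelled libraries (at least 416-fold lower in the knockout label, edgeR adjusted p = 2.60e-08). IGF2BP1, an RNA-binding protein of fetal tissues, was higher (51.3 ± 3.15 against 212 ± 7.38 CPM, log2 fold change 2.05 ± 0.14 SE, adjusted p = 8.34e-08 by edgeR).

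HOX genes hold a record of position along the body. Of them, 33 of 39 were tested, 10 higher and 9 lower, shares near those of all genes, and the median of -0.08 was above 0 with library size only (0.0746) and with GC offsets (0.00824). Single genes differed by large steps. HOXA9 was at least 112-fold lower in the knockout label (edgeR adjusted p = 2.73e-07), with 20.6, 17.6 and 13.1 CPM in the control-labelled libraries and 0.0847, 0 and 0.183 CPM in the knockout-labelled libraries, though its exons overlap those of HOXA10-AS and other genes. HOXB4, whose exons overlap those of HOXB3, was lower (12.1 ± 3.39 against 0.296 ± 0.173 CPM, log2 fold change -5.32 ± 0.43 SE, adjusted p = 5.29e-07 by edgeR), and HOXA3 (10.5 against 34.7 CPM) and HOXC8 (2.05 against 5.79 CPM) were higher.

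Among DNA methylation and silencing genes, all 28 were tested, 7 higher and 11 lower, and the median of 0.05 fell below 0 with GC offsets (-0.11) and with DESeq2 size factors (-0.00172). The methyltransferases DNMT3B (32.4 ± 0.819 against 8.72 ± 1.38 CPM, log2 fold change -1.89 ± 0.16 SE, adjusted p = 5.34e-07 by edgeR) and EHMT2 (277 against 73.0 CPM), of DNA and of histone H3, were lower, and the methyl-CpG reader ZBTB38 was higher (7.62 against 46.9 CPM). In SWI/SNF, 24 of 25 genes were tested, of which 3 were higher and 10 lower by the test (median log2 fold change -0.28, and -0.34 with GC offsets). Besides SMARCA4, the core subunit SMARCB1 was lower (229 ± 49.7 against 71.1 ± 12.5 CPM, log2 fold change -1.69 ± 0.20 SE, adjusted p = 1.39e-05 by edgeR).

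Class I HLA molecules present peptides to T cells on most cells, and class II on few. Of 25 tested genes, 6 were higher and 12 lower by the test (median log2 fold change -0.26, and -0.11 with GC offsets). Of 18 class I genes 6 were higher and 6 lower (median -0.01), and with GC offsets 9 were higher and 4 lower (median 0.30). HLA-B (227 ± 48.4 against 56.9 ± 6.37 CPM, log2 fold change -1.99 ± 0.20 SE, adjusted p = 3.30e-06 by edgeR) and HLA-C (869 ± 242 against 151 ± 20.9 CPM, log2 fold change -2.53 ± 0.24 SE, adjusted p = 1.72e-06 by edgeR) were lower while B2M, their shared light chain, was higher (156 ± 26.9 against 216 ± 5.75 CPM, log2 fold change 0.47 ± 0.13 SE, adjusted p = 0.00929 by edgeR). B2M turned to -0.14 with GC offsets, with or without the replicate block, and was no longer called with no filter (0.46), with GC offsets within groups (0.48) or without control replicate 2 (0.35). Class II genes were lower in 6 of 7 cases, among them HLA-DRB1 (6.40 against 0.0344 CPM). HLA alleles differ between lines and resemble each other, so reads of HLA genes can be lost or shared in mapping.

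Of 36 tested cytokine, chemokine and NF-kB genes, 12 were higher and 17 lower (median log2 fold change -0.41, and -0.30 with GC offsets). The macrophage growth factor CSF1 (17.3 ± 1.19 against 78.0 ± 2.79 CPM, log2 fold change 2.17 ± 0.15 SE, adjusted p = 1.18e-07 by edgeR) and the chemokine CCL2 (24.5 against 61.8 CPM) were higher, and the chemokine CXCL16 (98.2 against 20.3 CPM) and the leukocyte adhesion molecule ICAM1 (11.7 ± 0.927 against 1.68 ± 0.381 CPM, log2 fold change -2.80 ± 0.27 SE, adjusted p = 2.39e-06 by edgeR) were lower. Of 14 NF-kB genes 5 were higher and 6 lower, and their median of -0.31 turned to 0.14 with GC offsets. Among the higher ones, the NF-kB subunit REL (0.702 against 3.05 CPM) and the receptor adaptor TRAF1 (1.94 ± 0.223 against 10.4 ± 0.856 CPM, log2 fold change 2.42 ± 0.20 SE, adjusted p = 6.48e-07 by edgeR) were called by the test.

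**Figure D5:**
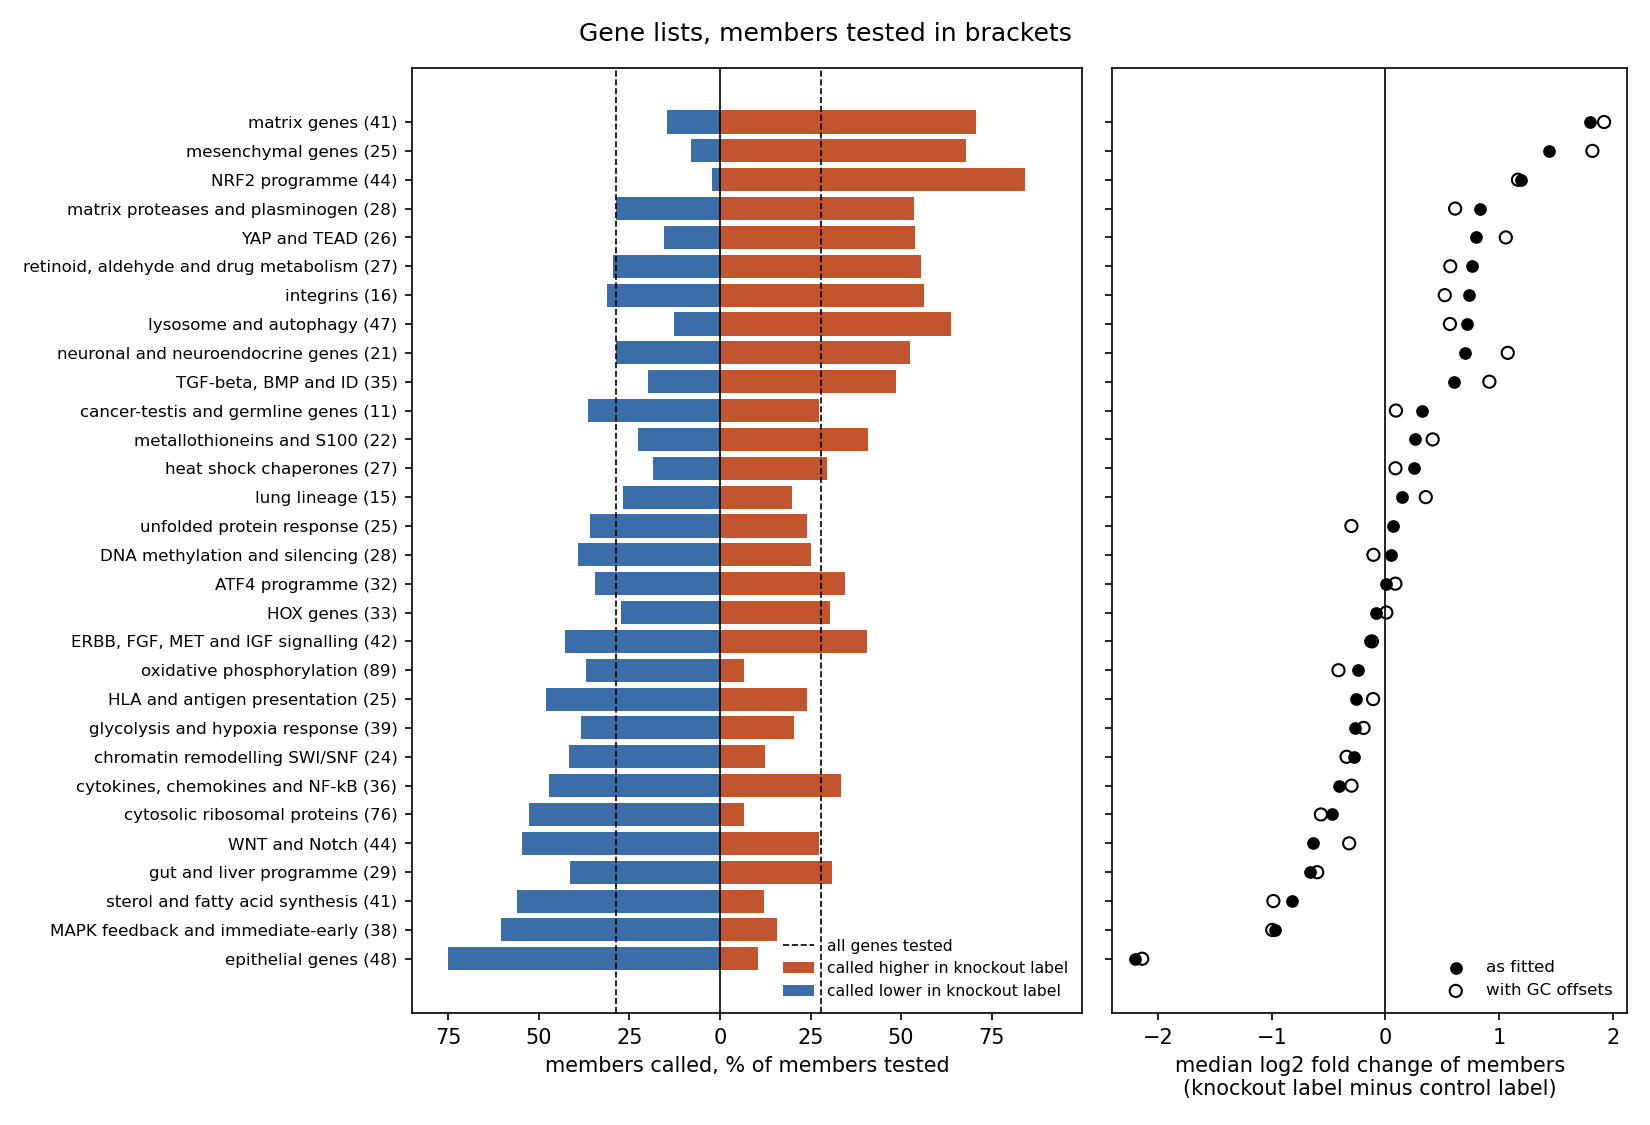
Left, percentage of tested members of 30 gene lists called higher (to the right) or lower (to the left) in the knockout label, with dashed lines at 28% and 28.6% for all genes tested; right, the median log2 fold change of each list as fitted and with GC offsets. Matrix, mesenchymal and NRF2 genes have the highest medians, and epithelial genes the lowest.

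Sterol and fatty acid synthesis is controlled by the SREBP factors. All 41 listed genes were tested, and 5 were higher and 23 lower by the test (median log2 fold change -0.82, and -0.99 with GC offsets). Regulators and uptake genes were 1 higher and 8 lower of 11, sterol enzymes 1 higher and 12 lower of 20, and fatty acid enzymes 3 higher and 3 lower of 10 (median 0.01). SREBF1 was at 509.6, 634 and 709 CPM in the control-labelled libraries and 149.7, 164 and 178 CPM in the knockout-labelled libraries (log2 fold change -1.91 ± 0.19 SE, adjusted p = 2.56e-06 by edgeR), and SREBF2 was lower as well (428 ± 81.6 against 125 ± 9.74 CPM, log2 fold change -1.77 ± 0.16 SE, adjusted p = 1.47e-06 by edgeR). The sides did not overlap for either. The fatty acid synthase FASN was 1 of the 3 lower fatty acid enzymes (3422 ± 684 against 656 ± 79.7 CPM, log2 fold change -2.38 ± 0.20 SE, adjusted p = 6.45e-07 by edgeR). ABCA1, which exports cholesterol, was higher (2.05 ± 1.44 against 49.1 ± 13.4 CPM, log2 fold change 4.59 ± 0.53 SE, adjusted p = 1.26e-05 by edgeR).

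The lysosome list had 47 tested genes, of which 30 were higher and 6 lower by the test (median log2 fold change 0.72, and 0.57 with GC offsets). The factors that drive these genes divided: MITF (3.15 ± 1.93 against 21.4 ± 4.16 CPM, log2 fold change 2.77 ± 0.52 SE, adjusted p = 0.000589 by edgeR) and TFE3 (92.2 against 188 CPM) were higher and TFEB (18.6 ± 5.73 against 7.55 ± 0.812 CPM, log2 fold change -1.299 ± 0.24 SE, adjusted p = 0.000603 by edgeR) lower. NPC1, which carries cholesterol out of lysosomes, was higher (42.7 ± 3.29 against 223 ± 9.22 CPM, log2 fold change 2.39 ± 0.12 SE, adjusted p = 5.94e-09 by edgeR), as was the protease CTSL (83.4 against 288 CPM), while its relative CTSV was lower (7.17 against 2.35 CPM). Among autophagy genes, OPTN (24.6 against 73.5 CPM), MAP1LC3B (45.2 against 93.7 CPM) and ULK1 (92.4 against 160.2 CPM) were higher.

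Cytosolic ribosomal protein genes were all tested, and 5 of 76 were higher and 40 lower (median log2 fold change -0.47, and -0.57 with GC offsets). RPS2 (7524 against 2753 CPM) was lower and RPS24 (197 against 489 CPM) higher. Many processed pseudogenes resemble these genes and could share their reads. In oxidative phosphorylation, 89 of 92 were tested, 6 higher and 33 lower (median log2 fold change -0.24, and -0.41 with GC offsets). Complex I held 18 of the lower genes, such as NDUFS7 (173 against 57.8 CPM), and of the 13 mitochondrially encoded genes 1 was higher and 1 lower.

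Of 39 glycolysis and hypoxia genes, 8 were higher and 15 lower (median log2 fold change -0.27, and -0.19 with GC offsets). Of the 23 glycolysis genes 2 were higher and 12 lower (median -0.52), and of the 16 hypoxia genes 6 were higher and 3 lower (median 0.37). HK2, a hexokinase (55.8 against 4.95 CPM), ALDOC, an aldolase (113 against 2.50 CPM), and the lactate exporter SLC16A3 (530.4 against 143 CPM) were lower. The regulatory enzyme PFKFB3 was higher (254 against 663 CPM). The oxygen-sensed factors HIF1A (32.9 ± 16.5 against 119 ± 17.0 CPM, log2 fold change 1.85 ± 0.44 SE, adjusted p = 0.00305 by edgeR) and EPAS1 (90.5 ± 8.85 against 403 ± 6.52 CPM, log2 fold change 2.15 ± 0.13 SE, adjusted p = 2.61e-08 by edgeR) were higher, as was the peptide hormone ADM (29.04 against 75.1 CPM), while NDRG1 was lower (163 against 59.1 CPM). PFKFB3, ADM and NDRG1 were named after their values were seen.

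Stress programmes showed no common direction. The ATF4 list, of amino acid synthesis and uptake, had 11 genes higher and 11 lower of 32, and its median of 0.01 (0.09 with GC offsets) was below 0 with DESeq2 size factors (-0.049). PHGDH, the first enzyme of serine synthesis (212 ± 44.8 against 66.1 ± 14.4 CPM, log2 fold change -1.68 ± 0.21 SE, adjusted p = 2.09e-05 by edgeR), SHMT2, the mitochondrial serine hydroxymethyltransferase (508 against 197 CPM), and PYCR1, of proline synthesis (441 against 118 CPM), were lower, and the transporter SLC7A5 was higher (1351 against 3929 CPM). In the unfolded protein response 6 were higher and 9 lower of 25, and the median of 0.07 turned to -0.30 with GC offsets. The chaperone gene HYOU1 (327 against 112 CPM) and the factor XBP1 (99.2 against 45.2 CPM) were lower. Heat shock chaperones had 8 higher and 5 lower of 27 (median log2 fold change 0.25, and 0.09 with GC offsets), with the small chaperone HSPB8 higher (8.002 ± 1.49 against 63.1 ± 3.89 CPM, log2 fold change 2.98 ± 0.19 SE, adjusted p = 5.63e-08 by edgeR).

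Metallothioneins bind zinc and copper, and S100 proteins bind calcium. Of 22 tested genes of both families and annexins, 9 were higher and 5 lower (median log2 fold change 0.26, and 0.42 with GC offsets). ANXA1 (86.4 ± 24.0 against 511 ± 69.5 CPM, log2 fold change 2.56 ± 0.32 SE, adjusted p = 2.60e-05 by edgeR) and ANXA2 (806 against 2663 CPM) were higher. MT1E was at least 270.0-fold lower in the knockout label (edgeR adjusted p = 2.28e-09), and S100A14 (129 against 0.257 CPM) and S100A2 (37.7 against 6.06 CPM) were lower. Metallothionein genes resemble each other closely, so single members are uncertain.

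Across the whole table, the 12 highest genes that met the rule included DLC1, UGT1A9, ACKR3, MYPN, SPP1 and NEFL. DLC1, a RhoGAP that restrains RHOA, was at 0.0620, 0 and 0 CPM in the control-labelled libraries and 55.9, 42.97 and 44.8 CPM in the knockout-labelled libraries (at least 269-fold higher in the knockout label, edgeR adjusted p = 3.82e-08). ACKR3, a scavenging receptor of the chemokine CXCL12, was at least 196-fold higher in the knockout label (edgeR adjusted p = 9.85e-09). MYPN, a sarcomere protein, was at least 115-fold higher in the knockout label (edgeR adjusted p = 8.82e-08), and the ferlin DYSF was higher (0.918 ± 0.208 against 39.002 ± 3.92 CPM, log2 fold change 5.39 ± 0.23 SE, adjusted p = 1.51e-09 by edgeR), as was the collagen COL11A1 (0.597 against 23.6 CPM). The 12 lowest included CDKN2A, MAGEB2, GTSF1 and GRHL2. TNFRSF18, the TNF receptor family member GITR, was at 42.7, 60.5 and 80.4 CPM in the control-labelled libraries and 0 CPM in each of the knockout-labelled libraries (at least 400.2-fold lower in the knockout label, edgeR adjusted p = 4.13e-08). CBLC, an epithelial ubiquitin ligase, was at least 307-fold lower in the knockout label (edgeR adjusted p = 2.82e-08), the homeobox factor ONECUT3 was at least 299-fold lower in the knockout label (edgeR adjusted p = 5.27e-09) and the kallikrein protease KLK6 was at least 199-fold lower in the knockout label (edgeR adjusted p = 4.30e-08). NTSR1, the neurotensin receptor, was at least 2089.9-fold lower in the knockout label (edgeR adjusted p = 5.45e-10), and the ligand WNT16 was at least 137-fold lower in the knockout label (edgeR adjusted p = 5.39e-08).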

How the data were processed

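Libraries were made from total RNA (miRNeasy columns, NEBNext Ultra RNA kit), per the labels' protocols. The authors deposited raw counts per Ensembl gene for 61541 genes. The submitters' processing notes name FastQC, STAR 2.7.9a, featureCounts, R 4.2.1, DESeq2 1.36.0 and the build GRCh38 (hg38), with no role or order. Annotation and strand setting are not given in the sources used here. Columns were matched to samples by name. Symbols were found for 42045 identifiers. By a match to GENCODE 29 on GRCh38, positions were found for 58366 of the 61541 and transcript GC content for 58312.

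Counts were used as deposited, in R 4.3.3 with edgeR 4.0.16. The filter filterByExpr left 16768 genes, libraries were scaled by TMM, and all 12 libraries in 4 group means shared 1 estimate of the spread. Genes were tested by the quasi-likelihood F-test (robust) with Benjamini-Hochberg adjustment over all genes, and called at an adjusted p under 0.05. Where each library of a side held at most 3 counts (0.127 to 0.186 CPM in the 6 libraries), the fold change is given as a lower bound against 3 counts, which covers counting noise only. The chi-square per gene between replicates was 8.31 to 44.8, above the value near 1 of a repeated library. GC offsets were lowess trends (span 0.3) of each library with transcript GC. The fit was also run on simulated counts, with far fewer changed genes than were called here and no trend with GC. That run therefore does not check the scaling or the GC trend of these data. DESeq2 1.42.0 was run as an alternative.

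The members and gene lists were chosen with earlier results of these data known. The rule for named genes took TYMS, the 9p21 and line trait genes, the 12 highest and 12 lowest genes with at least 20 CPM, up to 4 highest and 4 lowest called members of each list with at least 5 CPM, all without overlap between the sides, and the regulators of each list. Not every gene the rule selects is reported here. Some named genes share exons with others (CDKN2A with CDKN2B-AS1, CLDN7, SMARCA4, TAGLN, SREBF1, FOXA1, HLA-B, HLA-C and the UGT1A and some HOX genes among them), and their reads cannot be told apart without strand.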

Additional observations from a re-analysis of the deposited data

How the results depend on the processing

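Counts of calls over all genes stayed within 1.5 times the reported ones under all alternatives except the 2-fold rule. The 9485 calls (4690 higher, 4795 lower) became 9346 with library size only, 9563 with upper-quartile scaling, 9775 with DESeq2, 10077 with no filter, 6784 with a mean of at least 5 CPM required, 9457 with the 6 lone libraries alone, 10581 with GC offsets and 11411 with offsets within groups. They became 3527 (1636 and 1891) when a 2-fold change was required, as that rule itself asks more. Leaving out 1 library gave 7891 to 9712 calls, the lowest without control replicate 3. The counts of 58 and 8 genes seen on 1 side became 24 and 3 at 20 CPM, and 58 to 68 and 8 to 12 with 1 library left out. The labels do not say whether replicate numbers mark a shared batch, and the main fit held no block for them. Deviations of same-numbered libraries correlated at 0.491, -0.0242 and 0.378 for replicates 1, 2 and 3. Between replicates 1 and 3 of opposite sides they correlated at -0.426 and -0.46, and the other unlike pairs lay from -0.0915 to 0.108. The trends with GC also ran alike by number on the 2 sides. A shared batch was not tested. A replicate block gave 9067 calls (4439 higher, 4628 lower). Of 205 named genes, 169 stayed on their side of the threshold, in the same direction, under every alternative run. List results also moved without a turn of sign. Over all lists and alternatives, 107 medians were marked as moved, 22 as turned and 398 as the same. Of the list counts, 78 were marked as moved and 976 as the same. The signs that turned, each given as the log2 fold change of a gene or the median of a list, were as follows, and the cause was not tested. With library size only they were EHF 0.052, YAP1 0.14, GATA6 0.15, the list HOX genes 0.0746 and the list ERBB, FGF, MET and IGF signalling 0.0158. With DESeq2 they were TWIST1 -0.0404, the list DNA methylation and silencing -0.00172 and the list ATF4 programme -0.049. With the replicate block they were TWIST1 -0.00146 and GATA6 0.00488. With upper-quartile scaling they were YAP1 0.0659 and GATA6 0.0691. With 5 CPM required they were YAP1 0.033, GATA6 0.0352, the list cancer-testis and germline genes -5.25 and the list DNA methylation and silencing -0.0041. With GC offsets within groups it was YAP1 0.00307. With GC offsets they were TEAD4 0.12, GATA6 0.64, MYC 0.00671, B2M -0.14, the list HOX genes 0.00824, the list DNA methylation and silencing -0.11 and the list unfolded protein response -0.30. Also so it was the list line traits -0.13. With the replicate block and GC offsets they were TEAD4 0.12, GATA6 0.64, MYC 0.00699, B2M -0.14, the list HOX genes 0.00765, the list DNA methylation and silencing -0.11 and the list unfolded protein response -0.28. Also so it was the list line traits -0.13. With no filter it was the list ATF4 programme -0.00707. With the 6 lone libraries alone it was the list ATF4 programme -0.000826. With 1 library left out, values ranged from -0.30 to 0.29 for EHF, -0.21 to 0.24 for TWIST1, -0.20 to 0.13 for YAP1, -0.15 to 0.16 for GATA6, -0.031 to 0.16 for the list DNA methylation and silencing. They ranged from -0.0662 to 0.0569 for the list ATF4 programme, -0.016 to 0.14 for the list unfolded protein response and -0.0732 to 0.48 for the list line traits.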

Other observations

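Several genes that no list holds were all but absent from 1 side, and are given here as values chosen after they were seen, as means ± SD over 3 libraries, labelled control against labelled knockout. PRDX2, a peroxiredoxin that removes hydrogen peroxide, stood at 391 ± 98.4 against 0.381 ± 0.241 CPM. The ligand WNT3A stood at 25.1 ± 6.06 against 0.0369 ± 0.0324 CPM and WNT6 at 8.36 ± 2.52 against 0.0203 ± 0.0351 CPM. NOS3, the endothelial nitric oxide synthase, stood at 40.2 ± 9.34 against 0.0626 ± 0.0635 CPM. CST6, a secreted inhibitor of cysteine proteases, stood at 21.01 ± 6.74 against 0.0369 ± 0.0324 CPM, and the kallikrein KLK7 at 8.47 ± 1.03 against 0.0141 ± 0.0244 CPM. DNAJC15, a mitochondrial co-chaperone, stood at 9.75 ± 0.257 against 0.0498 ± 0.0862 CPM. In the other direction, the transcription factor MAF stood at 0.0412 ± 0.0357 against 14.3 ± 1.17 CPM and NPPB, the natriuretic peptide BNP, at 0.0413 ± 0.0716 against 10.96 ± 1.53 CPM.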
